A study of Cicer arietinum with 32 samples.

Results

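The 4 transcripts described here lie within seed weight quantitative trait loci (QTLs) of chickpea chromosome 1 and were followed through the expression atlas of Cicer arietinum genotype ICC4958. These are Ca_TC00095, annotated as gibberellin 20 oxidase 2, Ca_TC00098, a member of the GNS1/SUR4 membrane protein family, Ca_TC00490, a member of the cellulose synthase family, and Ca_TC00521, annotated as nitrate transporter 1:2. They were 4 of the 38818 transcripts of the atlas and were taken by name from the study's list of QTL candidates. That list was drawn from transcripts found to be tissue-specific in these same samples. The study called all of its seed weight candidates specific to stages of seed development, and these 4 to 20DAP seed. Their specificity is therefore given here as a description.

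The atlas held 32 tissues/organs, all of this genotype. Vegetative samples were germinating seedling (GS), shoot (S), young and mature leaf (YL, ML), bracteole (Brac), shoot apical meristem (SAM), root (R), root tip (Rtip), root hair (RH) and nodule (Nod). Reproductive samples were flower buds (FB1 to FB4), flowers from closed to senescing (FL1 to FL5), calyx (Cal), corolla (Cor), androecium (And), gynoecium (Gyn) and pedicel (Pedi). Fruit and seed were sampled as podshell (PodSh), seed coat (SdCt), embryo (Emb), endosperm (Endo) and whole seeds. Seeds were collected on days 5, 10, 20 and 30 from pollination, written as days after pollination (DAP), and per the study's methods the podshell and the 3 dissected seed parts came from 10DAP pods.

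Seed weight is set by the growth of the embryo, the endosperm that feeds it and the coat that encloses both. Gibberellins are growth hormones, and GA 20-oxidases carry out the late oxidation steps that give the precursors of the active forms. GNS1/SUR4 proteins, known from yeast as ELO proteins, elongate fatty acids to very long chains for sphingolipids. Cellulose synthases polymerize glucose at the plasma membrane, and the Arabidopsis protein nearest to Ca_TC00490, CESA8 (IRX1), is a subunit of the complex that makes secondary walls. NRT1:2 of Arabidopsis is a plasma membrane carrier of the PTR2 family that transports nitrate and also abscisic acid, and a developing seed receives its nitrogen and minerals through the coat.

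For 31 tissues/organs the deposited value is FPKM, the number of fragments relative to transcript length and library size. The study states that it averaged FPKM over its replicate libraries. Those files summed to between 597153 (nodule) and 959753 (endosperm), with a median of 800320. The 20DAP file carries the same heading but summed to 29579443, and 22.2% of its values above 0 were whole numbers. Its values were taken to be estimated counts with no division by length, so 20DAP is described apart. Root values above 0 were 100% whole hundredths, so no mean of replicates is visible there, and whether root holds a mean could not be checked. Each tissue/organ has 1 deposited value, and how far its replicate libraries spread cannot be seen. No FPKM below has an error for that reason, no test between tissues/organs was made, and neighbours in an order of levels cannot be said to differ beyond their spread. Marker transcripts stood where their labels place them: LHCB6, of the light-harvesting complex, had 283.0 FPKM in shoot, whose title says shoot while its tissue field reads root, against 15 FPKM in root, the root hair gene RHS14 had 1025 FPKM in root hair and at most 4.63 FPKM elsewhere, and the pollen genes RALFL19, SYP124 and ACA9 were all highest in androecium. In the bulk tissues used here, fewer cells that express a gene and less RNA per cell cannot be told apart.

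Of the 4 transcripts, 3 were highest in seed and 1 in podshell, each in a different sample. Of the 32421 transcripts with at least 1 FPKM in at least 1 of the 31, 28.6% were highest in a seed sample. The study's seed weight candidates were all called specific to seed stages, so a seed peak is no independent result. Ca_TC00095 led in endosperm, Ca_TC00098 in seed coat, Ca_TC00521 in whole 10DAP seed and Ca_TC00490 in podshell. The 6 seed samples among the 31 held 90.7% of the summed FPKM of Ca_TC00095, 97.8% of that of Ca_TC00098, 89.9% of that of Ca_TC00521 and 12.9% of that of Ca_TC00490. With 0.5 FPKM as the lowest level of an expressed transcript, Ca_TC00095 was expressed in 4 of 31 tissues/organs, Ca_TC00098 in 3, Ca_TC00521 in 3 and Ca_TC00490 in 1.

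**Figure D1:**
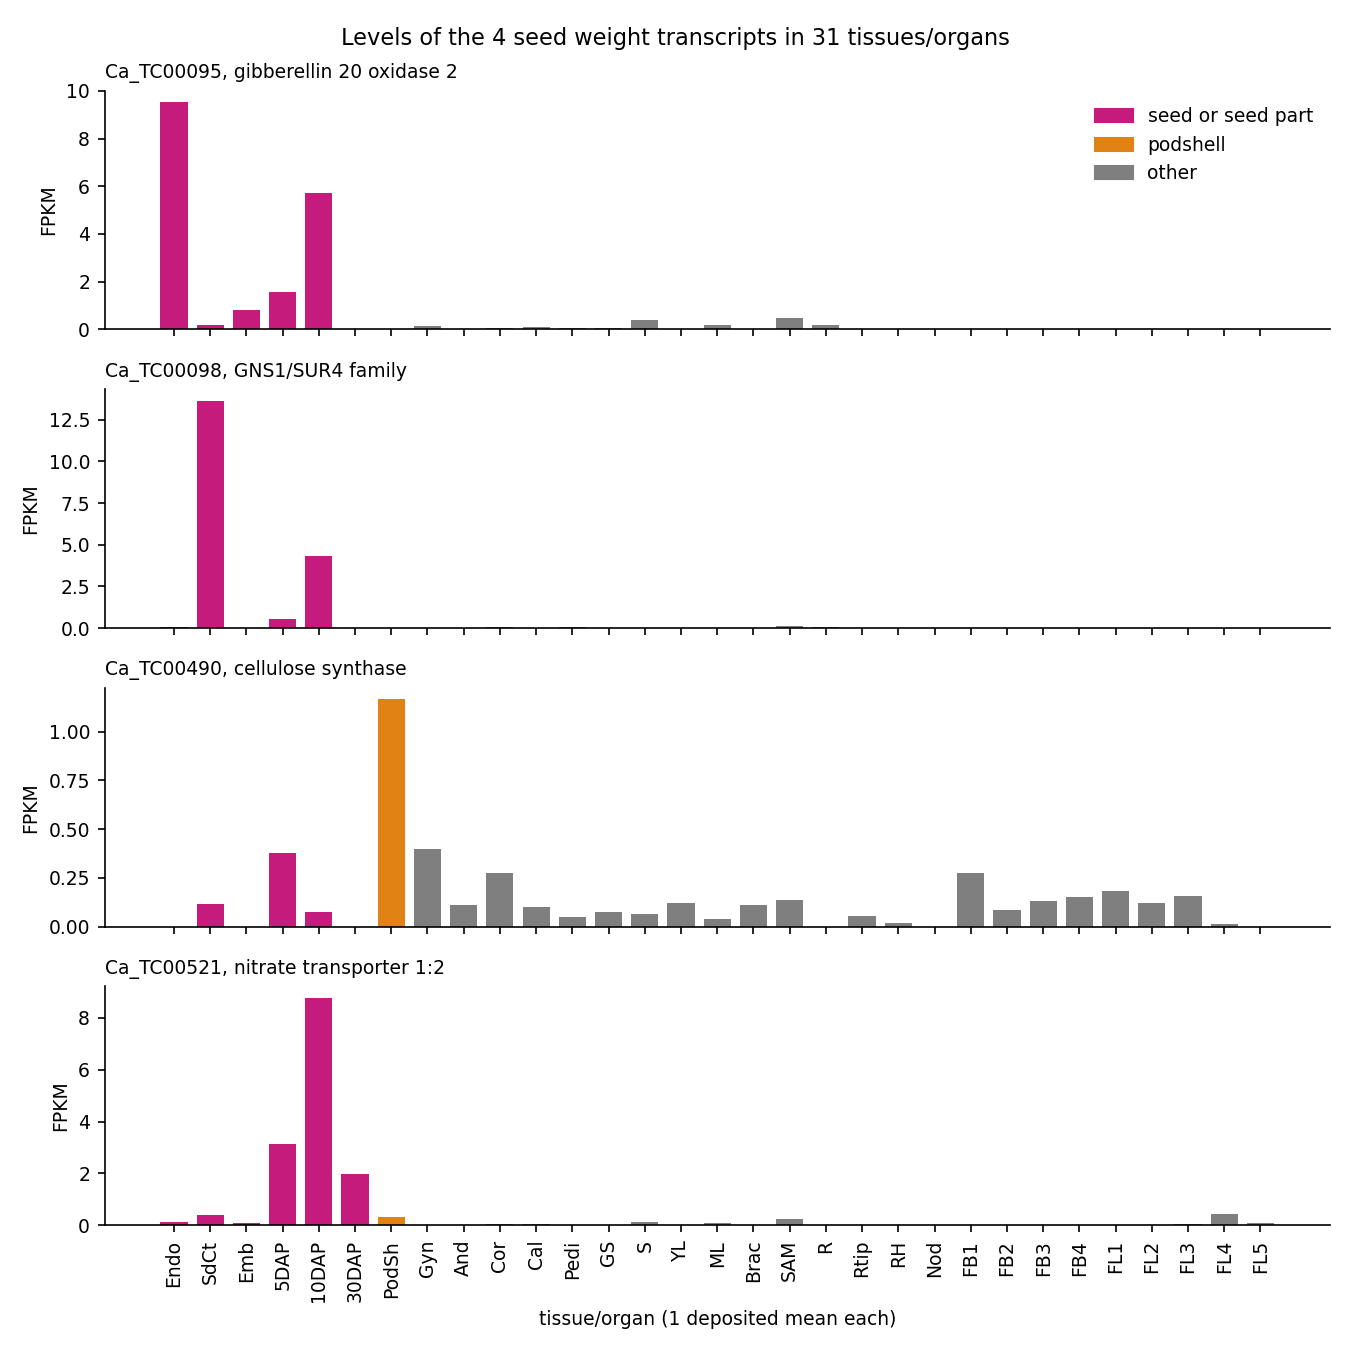
FPKM of the 4 transcripts in 31 tissues/organs, 1 bar for each deposited value, on a linear axis for each transcript. The 20DAP seed is left out because its values were taken to be counts. Ca_TC00095 peaks at 9.54 in endosperm, Ca_TC00098 at 13.7 in seed coat, Ca_TC00521 at 8.77 in 10DAP seed and Ca_TC00490 at 1.17 in podshell.

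Ca_TC00095, the gibberellin 20 oxidase, had 9.54 FPKM in endosperm, 5.74 FPKM in 10DAP seed, 1.57 FPKM in 5DAP seed and 0.803 FPKM in embryo, in that order, and the first was 1.66 times the second. Seed coat had 0.17 FPKM and 30DAP seed 0.01 FPKM. Endosperm was the one seed part with a level above 1 FPKM. Outside the seed the 25 samples ran from 0 to 0.47 FPKM with a median of 0.023 FPKM. The highest of these were shoot apical meristem at 0.47, shoot at 0.373, mature leaf at 0.19 and root at 0.17 FPKM, and root hair, FL1 and androecium were listed at 0. Flower buds and flowers did not exceed 0.023 FPKM. Among floral organs, gynoecium had 0.153, calyx 0.093, pedicel 0.057 and corolla 0.043 FPKM. Germinating seedling had 0.067, young leaf 0.03, root tip 0.023, podshell 0.017 and bracteole and nodule 0.013 FPKM. Traces of the transcript were thus listed in most organs. Its locus overlaps in part that of Ca_TC00096, described below, and the part of shared reads in these traces was not tested. Where it peaked, Ca_TC00095 stood at percentile 74.6 of all transcripts of the endosperm.

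Ca_TC00098, the GNS1/SUR4 transcript, had 13.7 FPKM in seed coat, 4.3 FPKM in 10DAP seed and 0.533 FPKM in 5DAP seed, and the seed coat value was 3.18 times that of 10DAP seed. The other seed parts had 0.073 FPKM in endosperm and 0.013 FPKM in embryo, and 30DAP seed was listed at 0. No sample outside the seed exceeded the 0.1 FPKM of shoot apical meristem, the median there was 0.01 FPKM, and 11 of the 25 were listed at 0. Root had 0.08, pedicel 0.043, corolla 0.04, FB1 0.03, FL4 0.023, and FL5 and calyx 0.02 FPKM. All 28 samples other than seed coat, 10DAP and 5DAP seed were at or under 0.1 FPKM. It stood at percentile 79.2 of all transcripts of the seed coat. LHCB6 was also high in seed coat, at 953.4 FPKM against 74.6 in embryo and 3.98 in endosperm; the part of chlorophyll-bearing cells in the difference was not tested.

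Ca_TC00521, the nitrate transporter, was found in whole seeds of every age with FPKM. It had 3.12 FPKM in 5DAP, 8.77 FPKM in 10DAP and 1.97 FPKM in 30DAP seed, the 10DAP value being 2.81 times that of 5DAP. The next samples were far lower, at 0.43 FPKM in FL4, 0.393 FPKM in seed coat, 0.327 FPKM in podshell and 0.253 FPKM in shoot apical meristem. The 4 root samples, including nodule, lay between 0 and 0.02 FPKM, and flower buds did not exceed 0.017 FPKM. Shoot had 0.11, FL5 0.103, mature leaf 0.083, calyx 0.067, FL3 0.063 and corolla 0.03 FPKM. A carrier named for nitrate was thus listed near 0 in root and highest in young whole seed. Endosperm had 0.127 FPKM and embryo 0.083 FPKM. The transcript stood at percentile 68.5 of all transcripts of 10DAP seed.

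Ca_TC00490, the cellulose synthase transcript, was low throughout. Podshell had 1.17 FPKM, 2.94 times the 0.397 FPKM of gynoecium, followed by 5DAP seed at 0.377, corolla at 0.277 and FB1 at 0.273 FPKM. Its median over the 31 was 0.1 FPKM, higher than that of the other 3 transcripts, and 16 samples had at least 0.1 FPKM. Among flowers and buds, FL1 had 0.183, FL3 0.157, FB4 0.15, FB3 0.13, FL2 0.12, FB2 0.087 and FL4 0.013 FPKM. Shoot apical meristem had 0.137, young leaf 0.123, androecium 0.113, bracteole 0.11 and calyx 0.1 FPKM. The remaining vegetative samples and pedicel did not exceed 0.077 FPKM. Low values were spread over flowers and green organs and did not gather in the seed. Seed coat had 0.117 FPKM and 10DAP seed 0.077 FPKM, whereas embryo, endosperm, 30DAP seed, root, nodule and FL5 were listed at 0. Even in podshell it stood at percentile 46.4 of all transcripts.

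The tissue specificity index (TSI) was calculated on log2(FPKM + 1) over the 31 tissues/organs, where 1 means a single tissue and 0 an even level. The threshold of 0.9 was the study's, which based its index on read counts in all 32 tissues/organs. Ca_TC00098 reached 0.97, Ca_TC00521 0.93, Ca_TC00095 0.93 and Ca_TC00490 0.87. With a pseudocount of 0.1 in place of 1, Ca_TC00521 had 0.86 and Ca_TC00095 0.85, below the threshold. In the main calculation 3 of the 4 passed, and 16.8% of the same 32421 transcripts did, but the 4 had been listed as tissue-specific beforehand. With the 20DAP numbers kept as deposited all 4 passed, Ca_TC00490 at 0.96, against 17.8% of the same transcripts. That step moved Ca_TC00490 across the threshold and put the peak of all 4 in 20DAP. On untransformed FPKM over the 31, Ca_TC00490 had 0.91, also above the threshold.

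Seed parts were then set against each other as log2 differences of FPKM + 1, and a difference past 2-fold was counted where at least 1 of both samples reached 1 FPKM. Ca_TC00095 was higher in endosperm than in embryo by 2.55, as were 23.7% of the transcripts so compared. It was also higher in endosperm than in seed coat, by 3.17, in common with 26.3% of transcripts. Ca_TC00098 was higher in seed coat than in embryo by 3.85, as were 24.5%. In endosperm it was lower than in seed coat, at -3.77, a direction shared by 24.6%. Ca_TC00490 and Ca_TC00521 did not reach 1 FPKM in any of the 3 parts and were not compared there. The enzyme of hormone synthesis and the enzyme of lipid elongation, which lie in the same QTL, were high in different parts of the same seed.

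Whole seeds showed a common course for 3 of the transcripts. From 5DAP to 10DAP the log2 difference was 1.39 for Ca_TC00095, 1.79 for Ca_TC00098 and 1.24 for Ca_TC00521. All 3 were past 2-fold, and 5.04% of the 22600 transcripts compared were higher to that extent. The 3 were taken from candidates called specific to seed stages in these same samples, so this count is no independent evidence. Between these ages, Ca_TC00098 reached 1 FPKM in 10DAP only, at 4.3 against 0.533 FPKM in 5DAP. From 10DAP to 30DAP the differences were -2.74 for Ca_TC00095, -2.41 for Ca_TC00098 and -1.72 for Ca_TC00521. All 3 again passed, but so did 66.0% of transcripts in that direction, and the median over all transcripts compared was -1.40. Ca_TC00490 was under 1 FPKM at all of these ages.

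In podshell against gynoecium, the organ from which the podshell grows, Ca_TC00490 differed by 0.63, short of 2-fold, while 17.1% of transcripts were higher past 2-fold. With a pseudocount of 0.1 the difference was 1.35, since adding 1 compresses the change of so low a transcript.

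**Figure D2:**
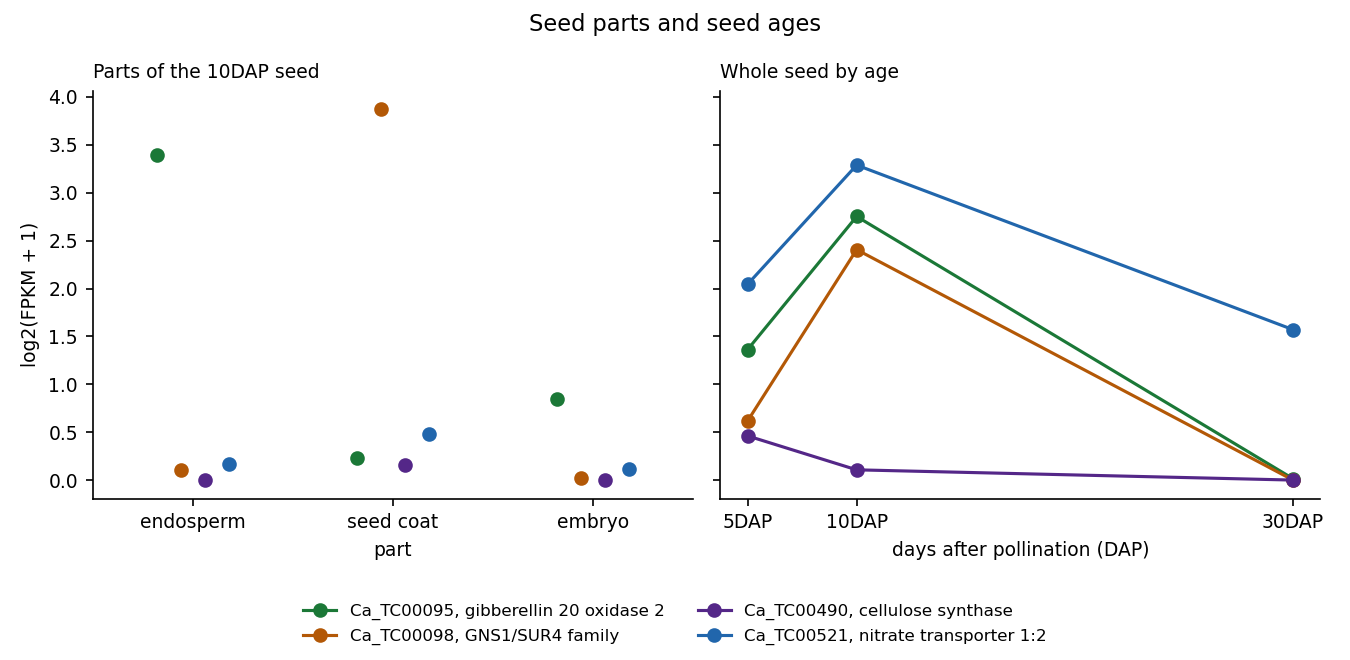
log2(FPKM + 1) of the 4 transcripts in the 3 dissected parts of 10DAP seed (left) and in whole seed by days after pollination (right), 1 point for each deposited mean. Ca_TC00095 stands out in endosperm at 9.54 FPKM and Ca_TC00098 in seed coat at 13.7 FPKM, while Ca_TC00521 is high in whole 10DAP seed at 8.77 FPKM and low in each part.

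The whole 10DAP seed could also be set against its own parts, a comparison chosen after the values were seen. Ca_TC00095 in whole seed lay between endosperm and embryo, and Ca_TC00098 between seed coat and endosperm. Ca_TC00521 did not lie within its parts. Whole 10DAP seed had 8.77 FPKM, against 0.393 in seed coat, 0.127 in endosperm and 0.083 in embryo, a log2 difference of 2.81 from the highest part. Of 20910 transcripts with at least 1 FPKM in 10DAP seed, 7.63% exceeded every part past 2-fold. Seed tissue outside the 3 dissected parts and unequal ages of the collections were not tested.

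Listed transcripts of the gibberellin pathway gave the context of Ca_TC00095, without a full survey of the assembly. All but Ca_TC18263 were numbered between Ca_TC00578 and Ca_TC01203 of the 38818. The list used held 9 further transcripts, from ent-kaurene oxidase (KO) and ent-kaurenoic acid oxidase (KAO2) through the 20-oxidase and 3-oxidase steps to the 2-oxidases that inactivate the hormone. Between endosperm and embryo, 3 of the 9 could be compared; 2 were higher and 1 lower in endosperm, where over all transcripts 23.7% were higher and 17.2% lower. The 2-oxidase transcript Ca_TC00578 (GA2OX2) had 26.3 FPKM in endosperm, against 0.75 FPKM in embryo and 0.403 FPKM in seed coat. The inactivating enzyme and Ca_TC00095 thus had their highest levels in the same sample.

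Another transcript with the annotation gibberellin 20 oxidase 2, Ca_TC18263, had a different distribution. It had 25.9 FPKM in 5DAP and 30.8 FPKM in 10DAP seed, 0.453 FPKM in endosperm and 0 in seed coat, embryo and 30DAP seed. KAO2 transcript Ca_TC00995 was alike, with 19.2 FPKM in 5DAP seed, 25.5 FPKM in 10DAP seed and at most 0.067 FPKM in any part. Like Ca_TC00521, both exceeded each dissected part in whole 10DAP seed, with log2 differences of 4.45 for Ca_TC18263 and 4.63 for Ca_TC00995. The 3-oxidase transcripts Ca_TC01202 and Ca_TC01203, for the step that yields active gibberellin, had 1.34 and 1.68 FPKM in 10DAP seed and at most 0.063 FPKM in the parts. They too exceeded each part past 2-fold, with log2 differences of 1.18 and 1.34. The remaining listed gibberellin transcripts did not, and over all transcripts with at least 1 FPKM in 10DAP seed 7.63% did. These 3-oxidase transcripts peaked in germinating seedling and calyx. The KO transcripts Ca_TC01080 and Ca_TC01081 peaked in root, at 88.9 and 117.5 FPKM. KAO2 transcript Ca_TC00996 peaked in 30DAP seed at 18.8 FPKM, and the 2-oxidase Ca_TC01027 (GA2OX4) in seed coat at 2.11 FPKM. From 5DAP to 10DAP none of the 7 list members compared was higher past 2-fold and 1 was lower, with a median of -0.24. Over all transcripts 5.04% were higher and 11.7% lower, with a median of -0.02.

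**Figure D3:**
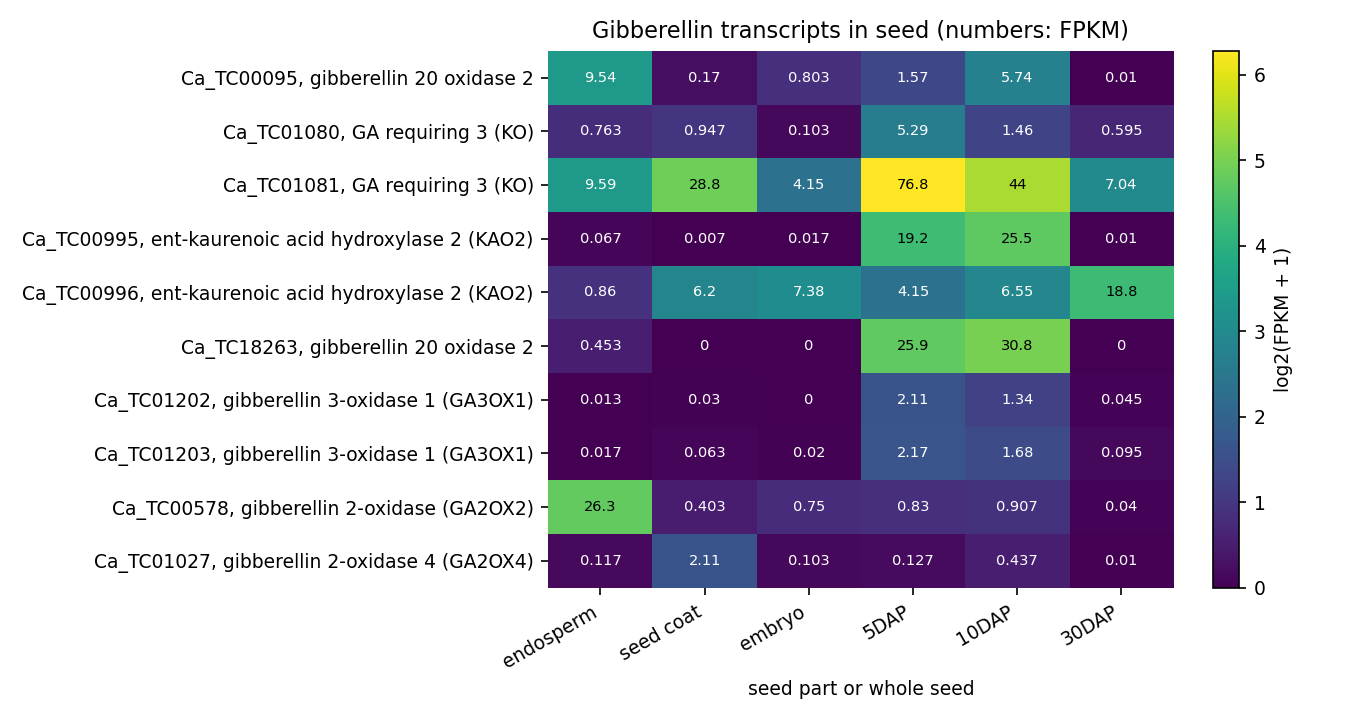
Ca_TC00095 and 9 other gibberellin transcripts in 3 seed parts and 3 whole-seed ages; colour is log2(FPKM + 1) and the number in each cell is FPKM. Ca_TC00095 (9.54) and the 2-oxidase Ca_TC00578 (26.3) are high in endosperm, while Ca_TC18263 and Ca_TC00995 are high in whole 5DAP and 10DAP seed and low in each part.

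For Ca_TC00098 the comparison was Ca_TC00100, a second GNS1/SUR4 transcript 3498 bases further along the chromosome. Ca_TC00100 was expressed in 31 of 31 tissues/organs, with a median of 4.98 FPKM, a peak of 8.77 FPKM in podshell and a TSI of 0.29. In seed coat the pair had 13.7 FPKM (Ca_TC00098) and 5.72 FPKM (Ca_TC00100), and in embryo 0.013 and 2.42 FPKM in the same order. The 3-ketoacyl-CoA synthases KCS10 (Ca_TC00376) and KCS6 (Ca_TC00377), condensing enzymes of the plant elongase, were instead highest in the youngest flower bud, at 434.1 and 19.8 FPKM, and at most 0.027 FPKM in any seed sample.

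Ca_TC00490 shares its locus with a second transcript. On the kabuli genome used by the study it lies on chromosome 1 from 3401298 to 3406381, and Ca_TC00491, with the same CESA8 annotation, runs from 3401184 to 3407128, so that 100% of the Ca_TC00490 span falls inside it. The study's quantifier divides reads that fit several transcripts, and the share given to each could not be checked here. Ca_TC00491 was expressed in 23 of 31 tissues/organs. It had 66.2 FPKM in podshell, 21.4 FPKM in pedicel, 19.6 FPKM in seed coat and 14.1 FPKM in shoot. In podshell both transcripts therefore had their highest FPKM, 1.17 for Ca_TC00490 and 66.2 for Ca_TC00491. Ca_TC00490 was above its partner in 3 samples, root hair, androecium and 5DAP seed, and in the last it had 0.377 FPKM against 0.053 FPKM. Pearson's r of the pair on log2(FPKM + 1) was 0.46 over 31 samples. Summed, the locus had a TSI of 0.64, well under the 0.87 of Ca_TC00490 alone.

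**Figure D4:**
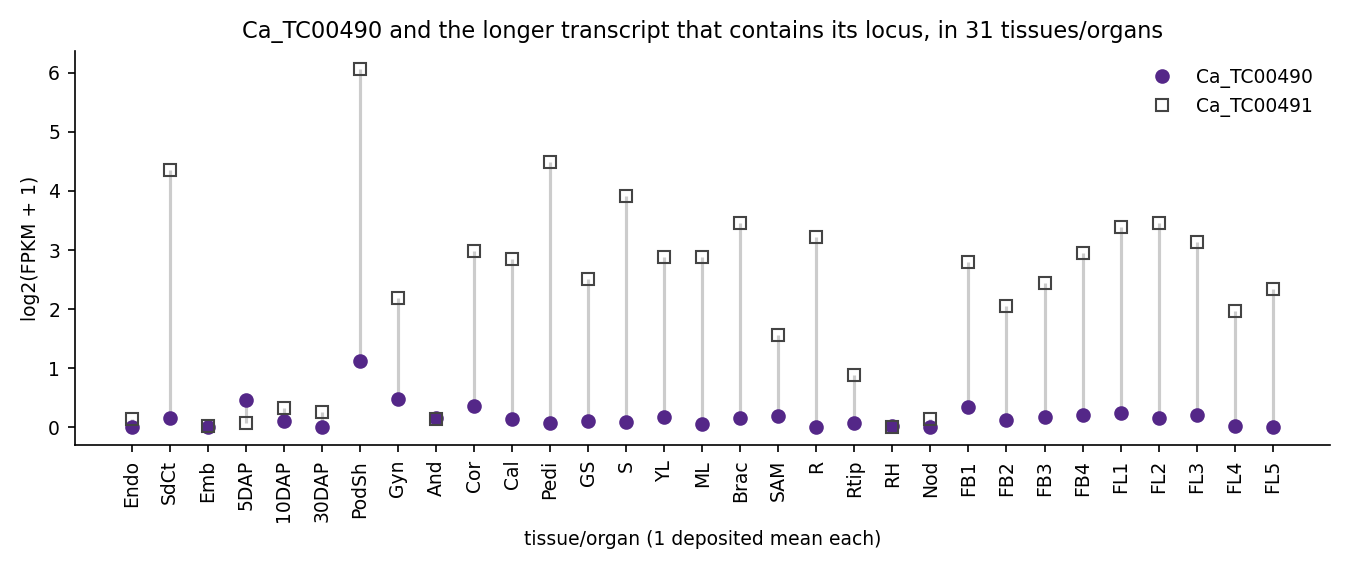
log2(FPKM + 1) of Ca_TC00490 (filled circles) and Ca_TC00491 (open squares), whose locus contains it, in 31 tissues/organs. Ca_TC00491 reaches 66.2 FPKM in podshell where Ca_TC00490 has 1.17 FPKM, and Ca_TC00490 is the higher one in root hair, androecium and 5DAP seed.

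A list of 6 wall transcripts, which includes Ca_TC00491, gave 5 that could be compared between podshell and gynoecium. All 5 were higher past 2-fold, as were 17.1% of all transcripts, and their median log2 difference was 2.27, against -0.16 over all transcripts. The list was chosen with earlier results of these data known, so this count is no independent evidence. Between these samples, Ca_TC01099 reached 1 FPKM in podshell only, at 9.85 against 0.923 FPKM in gynoecium. The 5 stand for 3 annotations, since they were Ca_TC00491, both KOR1 endoglucanase transcripts, which act in cellulose synthesis, and both transcripts of cinnamoyl-CoA reductase (CCR1), an enzyme of lignin synthesis. KOR1 transcript Ca_TC00882 and CCR1 transcript Ca_TC01100 had 437.5 and 235.3 FPKM in podshell. COBL6 (Ca_TC00062), a COBRA-like protein, had instead 69.0 FPKM in endosperm. Of 2 listed PTR2-domain carriers beside Ca_TC00521, Ca_TC01249 was expressed in all 31 tissues/organs and peaked in 5DAP seed at 74.7 FPKM. The other, Ca_TC00012, peaked in FL3 at 17.4 FPKM. From 5DAP to 10DAP seed, where Ca_TC00521 was higher, Ca_TC01249 was lower, at 10.5 FPKM in 10DAP.

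The 20DAP file held 19.5 estimated counts for Ca_TC00095, 101.5 for Ca_TC00098, 24.3 for Ca_TC00490 and 11 for Ca_TC00521, each a mean of 2 libraries. Exact Poisson intervals at the 95% level, which cover counting error only, ran from 13.9 to 26.7, from 88.0 to 116.0, from 17.9 to 32.1 and from 6.89 to 16.7 counts in the same order. Per 1000000 counts of the file these were 0.659, 3.43, 0.82 and 0.372. As deposited, the 20DAP number was the highest of 32 for all 4, and it was for 57.5% of all transcripts above 0. After each sample was scaled to a common sum it was the highest for none of the 4, and for 6.07% of transcripts, although the 20DAP numbers were still not divided by length.

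Counts can be set beside FPKM only through transcript length. As the quantifier measures length, the 20DAP count would equal the highest FPKM elsewhere for a transcript of 69.1 bases in Ca_TC00095, 251.2 bases in Ca_TC00098, 702.8 bases in Ca_TC00490 and 42.4 bases in Ca_TC00521, and any longer transcript would put 20DAP below it. Transcript lengths were not used here. The genomic spans, which include introns, were 3403, 1122, 5084 and 3097 bases, and at the full span the counts would come to 0.194, 3.06, 0.161 and 0.12 FPKM, the lowest that a transcript within its span could give. The median of this length over the 32421 transcripts was 101 bases, and 45.1% of transcripts had a lower one than Ca_TC00095, 64.7% than Ca_TC00098, 85.4% than Ca_TC00490 and 39.7% than Ca_TC00521. Ca_TC00491 differed. Its 12499 counts, 423.0 per 1000000, would equal its 66.2 FPKM in podshell only at 6387 bases, more than its genomic span of 5945 bases, and at that span it would have 71.1 FPKM. Ca_TC00490 received 0.194% of the counts of the pair.

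**Figure D5:**
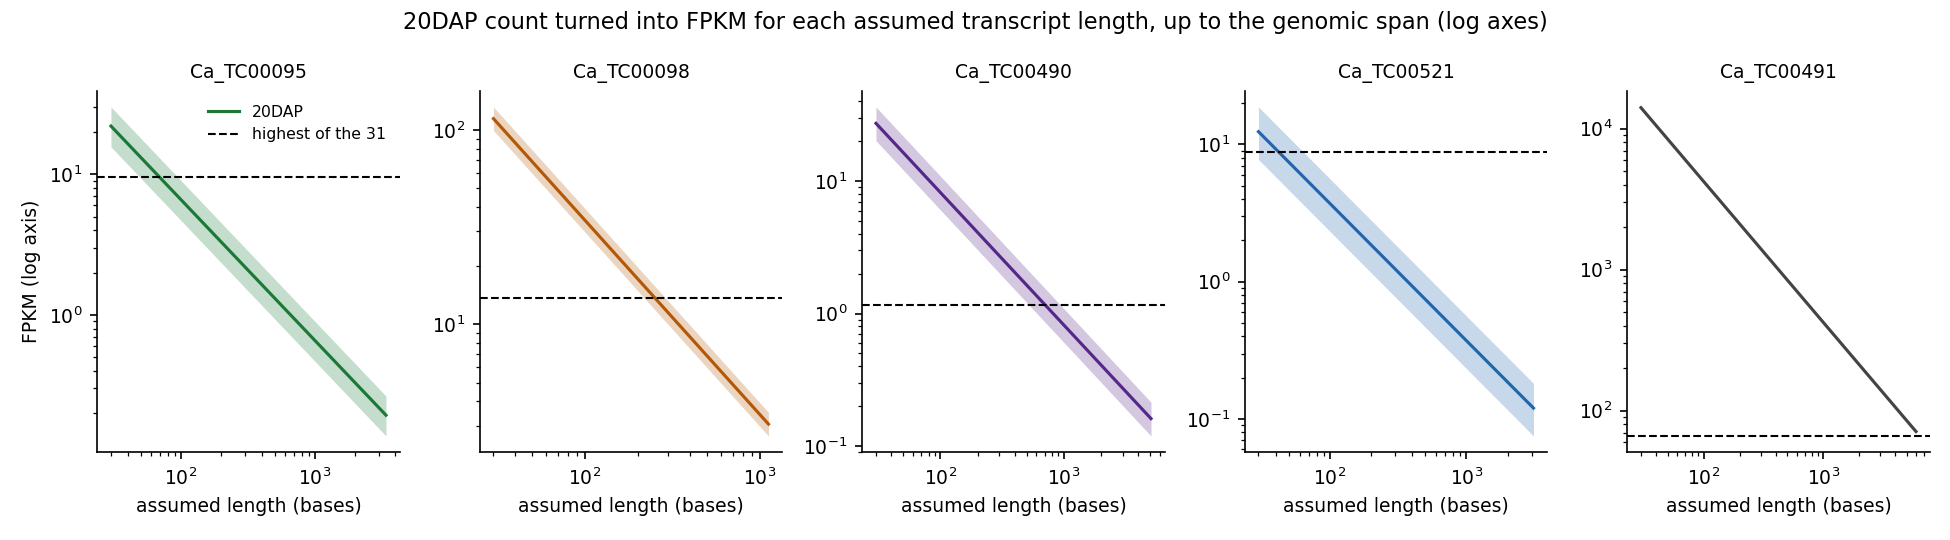
The 20DAP count of each transcript turned into FPKM (solid line; band, 95% Poisson interval) for assumed lengths up to its genomic span, with its highest FPKM among the other 31 samples as a dashed line; both axes are logarithmic. The lines cross at 69.1 bases for Ca_TC00095, 251.2 for Ca_TC00098, 702.8 for Ca_TC00490 and 42.4 for Ca_TC00521, and do not cross for Ca_TC00491.

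The loci fell in 2 QTLs. Ca_TC00095 lies on chromosome 1 from 635630 to 639032 and Ca_TC00098 from 648826 to 649947 in one of them. In the other are Ca_TC00490 and Ca_TC00521, and Ca_TC00521 lies from 3608692 to 3611788. Ca_TC00096, a fibrillin family transcript, overlaps 1111 bases or 32.6% of Ca_TC00095; it peaked in young leaf at 96.8 FPKM and its r with Ca_TC00095 was -0.05 over 31 samples. Around Ca_TC00095, the F-box transcript Ca_TC00094 had the highest r, 0.54, with 18.2 FPKM in endosperm and 22.8 FPKM in embryo. Ca_TC00097, which ends 106 bases before Ca_TC00098, peaked in 5DAP seed at 23.6 FPKM and had an r of 0.14 with it. Beside Ca_TC00521, Ca_TC00520 peaked in shoot at 31.6 FPKM and the DUF1264 transcript Ca_TC00522 in 30DAP seed at 2001 FPKM. Over the neighbours on either side, r ran from -0.19 to 0.54. Among the 4 themselves r was highest for Ca_TC00095 and Ca_TC00521, at 0.56, and for Ca_TC00098 and Ca_TC00521, at 0.51. These correlations describe the 31 samples, many of which are near 0 for all of these transcripts.

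The transcripts most like each of the 4 were sought by Pearson's r on log2(FPKM + 1) over the 31 samples. For Ca_TC00095 they were Ca_TC12825, Ca_TC14950 and Ca_TC20510, each with an r of 0.98 and its highest FPKM in endosperm, 36.5, 15.4 and 7.09. For Ca_TC00098 they were Ca_TC20235 and Ca_TC30401 at 0.96 and Ca_TC29430 at 0.95, all highest in seed coat. For Ca_TC00521, Ca_TC31266 had an r of 0.95 and Ca_TC30484 and Ca_TC13990 had 0.91, all highest in 10DAP seed at 1.49, 1.73 and 2.98 FPKM. For Ca_TC00490 the closest, Ca_TC19479, Ca_TC37603 and Ca_TC09302, reached 0.86, 0.85 and 0.85 and were highest in podshell.

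The study listed 15 other seed weight candidates on chromosome 1 beside these 4. Since the list was chosen on these samples, its counts are no independent evidence. Of the 19, 17 had their highest deposited number in 20DAP, and 4 did after scaling to a common sum, none of them among the 4 described here. Of the 16 that reached 1 FPKM in the 31 samples, 12 peaked in a seed sample, against 28.6% of all such transcripts, and 8 reached a TSI of 0.9, against 16.8%. XTH32 (Ca_TC01535), a xyloglucan endotransglucosylase/hydrolase of the wall, was high in the same part as Ca_TC00098, with 75.7 FPKM in seed coat. The homeodomain transcript Ca_TC00961 was highest in the same part as Ca_TC00095, with 3.41 FPKM in endosperm. Of the 15, 3 did not reach 1 FPKM in any of the 31 samples.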

How the data were processed

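RNA-seq of 32 tissues/organs was analysed from 1 deposited table per tissue/organ. The authors removed low-quality paired-end reads (NGS QC Toolkit), mapped the rest by bowtie2 to an assembly of 38818 transcripts made for the study, and estimated levels by RSEM. Replicates were averaged before deposit, 3 libraries each, or 2 for 20DAP and 30DAP. The deposited FPKM of 31 files were used as they are. The deposited 20DAP values were read as estimated counts, from their sum. Root values were 100% whole hundredths, so no mean of 3 is visible there, and whether they are a mean could not be checked.

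No test was possible with 1 value per group. TSI, log2 differences with a pseudocount of 1, Poisson intervals and Pearson's r were calculated in Python 3.11.15 with NumPy 2.4.6, pandas 2.3.3 and SciPy 1.17.1, on functions tested on simulated data. The alternatives were other pseudocounts, thresholds, filters, scalings and correlation measures, and 20DAP kept or left out. Positions and annotations come from the study's tables (kabuli genome v1.0); no sequence or transcript length was used. The FPKM files hold no counts, so the depth behind a single FPKM value was not used here.

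The members and lists were chosen with earlier results of these data known. The pathway lists were no full survey of the assembly, so other transcripts with the same annotations may exist. Named were the 4 members, the listed transcripts, the 2 transcripts on each side of a member and the 3 most like it among those with an FPKM of at least 1.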

Additional observations from a re-analysis of the deposited data

Results flagged for a closer look

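The 20DAP table stands outside the FPKM comparisons, and its counts for all 4 transcripts were above the floor of 3 counts set here. They were 19.5 for Ca_TC00095, 101.495 for Ca_TC00098, 24.26 for Ca_TC00490 and 11 for Ca_TC00521. The overlapping transcript Ca_TC00491 had 12499.035. These values show that reads were assigned to each transcript in 20DAP seed and give no level per length.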

How the results depend on the processing

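With a pseudocount of 0.1 the TSI fell below 0.9 for Ca_TC00095, at 0.85, and for Ca_TC00521, at 0.86. The TSI of Ca_TC00490 rose above 0.9 with 20DAP kept as deposited, at 0.96, and on untransformed FPKM, at 0.91. Its log2 difference of podshell against gynoecium was 1.35, past 2-fold, with a pseudocount of 0.1. The other 10 log2 differences of the members kept their side of 2-fold under both alternatives, as did that of Ca_TC00521 between whole 10DAP seed and its parts, a comparison chosen, with its alternatives, after seeing the data. At a threshold of 0.1 FPKM, Ca_TC00095 was expressed in 10 tissues/organs against 4, Ca_TC00490 in 16 against 1 and Ca_TC00521 in 10 against 3; scaled to TPM, Ca_TC00490 was expressed in 2. Without the filter on low values the share of all transcripts past 2-fold was 22.9% against 40.9% for endosperm and embryo, and 41.4% against 73.2% for 30DAP and 10DAP seed. By Spearman's rho none of the 3 transcripts most like each member was the same. Without the filter, 3 were shared for Ca_TC00095, 2 for Ca_TC00098, 0 for Ca_TC00490 and 1 for Ca_TC00521. With 20DAP kept as deposited, 0, 1, 0 and 2 were shared in the same order. Those names thus depend on the measure, the filter and the samples. No paired analysis was possible because each group is 1 sample, and leaving out a replicate could not be run on averages. The FPKM files hold neither counts nor single libraries, so no interval for an FPKM value was calculated.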
